A study of Bos taurus with 10 samples.

Results

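The keratins *KRT8*, *KRT18* and *KRT19*, vimentin (*VIM*) and the actin-associated genes *ACTN1*, *ACTN4*, *TPM1*, *TMSB10* and *PDLIM1* were followed in bovine oocytes before and after maturation in vitro. A probe set was taken as a member where the gene annotation gave it a single symbol and that symbol was 1 of these 9 genes. This gave 15 probe sets for 9 genes, out of 13292 probe sets with a single symbol for 9155 genes. Every probe set is described separately, since those of *ACTN1*, *ACTN4* and *TPM1* did not all behave alike.

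The samples were 5 pools of in vitro matured (IVM) oocytes and 5 pools of immature oocytes, each of 100 oocytes, and each pool was hybridised to 1 Affymetrix bovine array. The oocytes of both groups came from 3 to 8 mm follicles of cow ovaries collected at an abattoir, 1 pool of each group per day of collection, so a pool mixes animals and no single cow can be followed. IVM oocytes had spent 24 h at 39°C inside their cumulus complexes in TCM-199 that held 10 ng/ml epidermal growth factor and 10% serum of fetal calves, whereas immature oocytes were taken at 0 h. In both groups the cumulus cells were stripped by pipetting, only oocytes with no visible cumulus were kept, and 100 ng of RNA per pool was amplified in 2 rounds. The breed and age of the cows are not given in the sources used here.

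Intermediate filaments are built from keratin pairs in epithelia, where KRT8 and KRT18 assemble with each other, and from vimentin in mesenchymal cells. Granulosa and cumulus cells, the somatic cells that surround the oocyte, are known to contain vimentin as well as keratins. Alpha-actinins cross-link actin filaments, tropomyosins run along them, thymosin beta 10 binds actin monomers, and PDLIM1 is a PDZ and LIM domain protein that binds alpha-actinin.

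All values are log2 signals as the authors summarised them with FARMS, a method that reports an almost constant value where the probes of a probe set share no signal. Of 24016 probe sets tested, 14556 spanned less than 0.01 over the 10 arrays and are called flat here. A probe set was said to rise or fall when its IVM minus immature difference in limma had an adjusted p under 0.0001 over all probe sets. The looser threshold of 0.05 is given beside it. All 10 oocyte markers with a probe set varied, and *KPNA7*, an oocyte importin, was at 13.57 ± 0.16 in IVM and 13.20 ± 0.047 in immature oocytes (SD, n = 5 each). *GTSF1*, another of them, averaged 5.95 ± 0.37 in IVM, where its value cannot be told from that of a dim probe set, and 10.82 ± 0.21 in immature oocytes. Poly-A control RNAs averaged 7.73 to 8.23 on the IVM arrays and 6.85 to 7.24 on the immature arrays, a difference of 0.94 (p = 0.00794 by a two-sided exact permutation test, the lowest value possible with 5 against 5). Hybridization controls averaged 10.75 to 11.22 on the IVM arrays and 9.38 to 10.85 on the immature arrays, where replicates 1, 2 and 3 were the low ones. The part of these controls in the results was not tested, and the differences that change sign when the arrays are centred on them are named with their genes. Since RNA was measured in pools, fewer cells of a type and less RNA per cell cannot be told apart.

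Among the 15 member probe sets, 1 rose and 2 fell. *PDLIM1* was higher in IVM oocytes, and *KRT19* and 1 probe set of *ACTN1* were lower. Over all 24016 probe sets 0.974% rose and 4.81% fell, 5.78% together. At the looser threshold 3 were higher and 4 lower, that is 7 of 15, against 15.5% higher and 15.0% lower over all probe sets, 30.5% together. The other 8 were 4 varying probe sets that did not pass and 4 flat ones, namely the only probe set of *KRT8*, 1 of *ACTN1* and 2 of *ACTN4*. A flat value is no sign that a transcript was absent. With the replicate number as a block, 0 of the 24016 probe sets passed 0.0001 in limma, members included, while 6145 were under an adjusted p of 0.05 and 8805 under an unadjusted p of 0.05, and 7 of the members were under each. With the same block over the 9460 varying probe sets only, an alternative added after seeing the data, *PDLIM1* (adjusted p = 3.20e-05), *KRT19* (adjusted p = 5.88e-05) and the *ACTN1* probe set (adjusted p = 3.24e-05) passed.

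**Figure D1:**
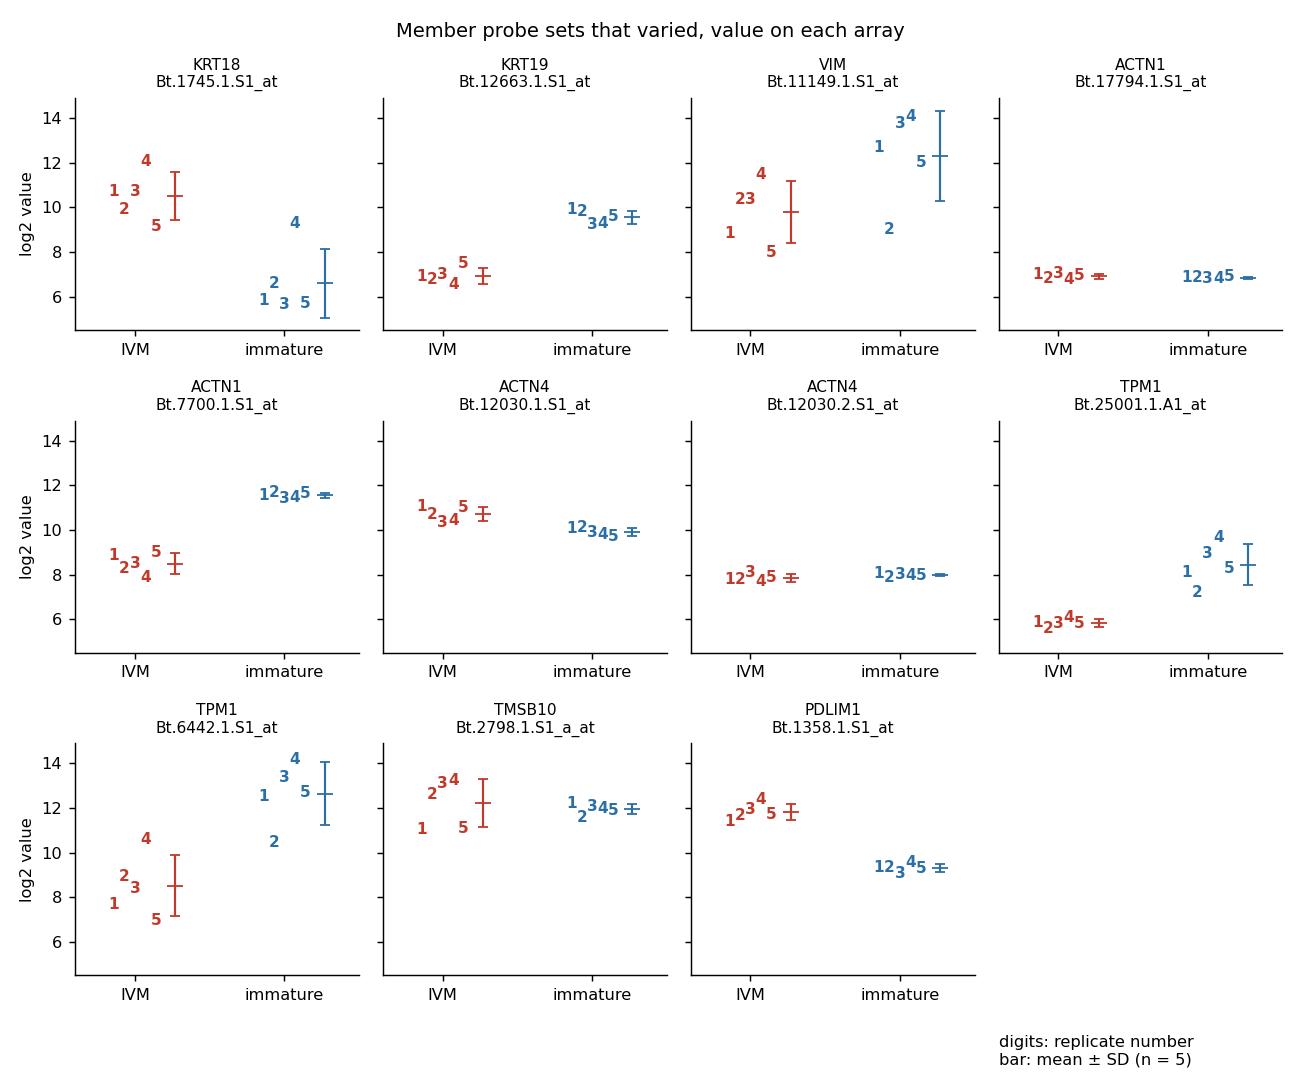
Log2 value of the varying member probe sets on each array, IVM left and immature right, with digits for the replicate number and bars for the mean and SD of 5 arrays. The groups of *PDLIM1*, *KRT19*, *ACTN1* (Bt.7700.1.S1_at), *ACTN4* (Bt.12030.1.S1_at) and *TPM1* (Bt.25001.1.A1_at) do not overlap, and *VIM* spans 9.01 to 14.09 in immature oocytes.

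Of the keratins, *KRT19* fell and *KRT18* was higher on average. KRT19 is a type I keratin of simple epithelia. *KRT19* had 6.91, 6.76, 6.99, 6.56 and 7.51 on IVM arrays 1 to 5, against 9.89, 9.82, 9.24, 9.30 and 9.57 on immature arrays 1 to 5. The highest IVM array lay 1.74 below the lowest immature array, so the groups did not overlap. The IVM values of *KRT19* cannot be told from those of a dim probe set. The means were 6.94 ± 0.36 and 9.56 ± 0.29 (IVM and immature, SD, n = 5 each), a difference of −2.62 (SE 0.20, limma adjusted p = 2.95e-05) a 6.15-fold lower signal. With the block the adjusted p was 0.00298. The call at 0.0001 held without IVM replicate 4 or IVM replicate 5 and ended without any other single array, with an adjusted p of at most 2.02e-04.

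KRT18 is the type I partner of KRT8. *KRT18* had 10.70, 9.91, 10.73, 12.05 and 9.16 on IVM arrays 1 to 5, against 5.81, 6.57, 5.63, 9.27 and 5.68 on immature arrays 1 to 5. Immature replicate 4 stood far above the other immature pools and just above IVM replicate 5, and it alone made the groups overlap. The values of the other immature pools cannot be told from those of a dim probe set. The means were 10.51 ± 1.08 and 6.59 ± 1.54 (IVM and immature, SD, n = 5 each), a difference of 3.92 (SE 0.84, limma adjusted p = 0.00789), which passed 0.05 but not 0.0001. In all 5 same-numbered pairs the IVM pool was higher. Without immature replicate 4 the difference was 4.59 with an adjusted p of 0.00104. Against immature replicates 4 and 5 alone, the immature arrays with hybridization controls near those of the IVM arrays, the difference was 3.04 with an adjusted p of 0.203.

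*KRT8* gives no comparison, since its only probe set stood at 6.72 on every array. *KRT8* and *KRT18* are next to each other on bovine chromosome 5 in the RefSeq annotation (ARS-UCD2.0), and *KRT19* lies between *KRT15* and *KRT9* on chromosome 19.

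*VIM*, which encodes the intermediate filament protein of mesenchymal and granulosa cells, was among the most variable genes within a group. *VIM* had 8.82, 10.34, 10.33, 11.49 and 7.99 on IVM arrays 1 to 5, against 12.69, 9.01, 13.75, 14.09 and 12.00 on immature arrays 1 to 5. Immature replicate 2 was far below the other immature pools and below 3 of the 5 IVM pools, so the groups overlapped. The means were 9.79 ± 1.38 and 12.31 ± 2.02 (IVM and immature, SD, n = 5 each), a difference of −2.51 (SE 1.09, limma adjusted p = 0.128). It was lower in IVM in 4 of 5 same-numbered pairs, and replicate 2 differed by 1.33 the other way. Only 0.06% of the varying probe sets had an immature SD as large as that of *VIM*. Without immature replicate 2 the difference was −3.34 with an adjusted p of 0.0204, and over the varying probe sets alone, with all arrays, the adjusted p was 0.0412.

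The actin-binding members did not move in one direction. PDLIM1 carries a PDZ domain and a LIM domain and sits on actin stress fibres through alpha-actinin. *PDLIM1* had 11.37, 11.66, 11.91, 12.36 and 11.73 on IVM arrays 1 to 5, against 9.32, 9.34, 9.06, 9.57 and 9.30 on immature arrays 1 to 5. Every IVM pool lay above every immature pool, with a gap of 1.80 between the groups. The means were 11.81 ± 0.37 and 9.32 ± 0.18 (IVM and immature, SD, n = 5 each), a difference of 2.49 (SE 0.18, limma adjusted p = 1.93e-05) or a 5.62-fold higher signal. With the block the adjusted p was 0.00181. The call at 0.0001 held without IVM replicate 1, IVM replicate 4 or immature replicate 4 and ended without any other single array, with an adjusted p of at most 1.43e-04.

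*ACTN1* and *ACTN4* encode the alpha-actinins of non-muscle cells. The *ACTN1* probe set Bt.7700.1.S1_at had 8.86, 8.26, 8.52, 7.86 and 8.98 on IVM arrays 1 to 5, against 11.55, 11.67, 11.41, 11.47 and 11.62 on immature arrays 1 to 5. The immature pools were tightly grouped (SD 0.11) and the highest IVM pool was 2.43 below the lowest of them. The difference was −3.05 (SE 0.21, limma adjusted p = 1.28e-05), an 8.28-fold lower signal in IVM oocytes. With the block the adjusted p was 0.00205, and without immature replicate 5 it was 1.02e-04, so that the call was lost.

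A second varying *ACTN1* probe set, Bt.17794.1.S1_at, had 7.0, 6.80, 7.03, 6.75 and 6.97 on IVM arrays 1 to 5, against 6.84, 6.85, 6.80, 6.82 and 6.89 on immature arrays 1 to 5. These values overlapped and all lay within 0.28 of each other. The difference was 0.071 (SE 0.058, limma adjusted p = 0.441), and it changed sign on centring on the poly-A controls (−0.86) or the hybridization controls (−0.83). The remaining *ACTN1* probe set, Bt.17794.2.A1_at, was flat at 6.61. On both groups of arrays the values of Bt.17794.1.S1_at cannot be told from those of a dim probe set. The 2 varying probe sets of *ACTN1* thus differed by 3.12 in their log2 differences. Among 762 genes with at least 2 varying probe sets the median of that gap was 0.807, and 8.66% had a gap at least as large as *ACTN1*.

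*ACTN4* also had probe sets that differed. Bt.12030.1.S1_at had 11.04, 10.70, 10.34, 10.43 and 11.02 on IVM arrays 1 to 5, against 10.08, 10.09, 9.87, 9.81 and 9.69 on immature arrays 1 to 5. The IVM pools were all higher, by 0.25 at the closest. The difference was 0.80 (SE 0.16, limma adjusted p = 0.00625), which passed 0.05 but not 0.0001, and it became −0.14 with poly-A centring and −0.11 with hybridization centring. Against immature replicates 4 and 5 alone its adjusted p was 0.0640. The second varying *ACTN4* probe set, Bt.12030.2.S1_at, had 7.78, 7.76, 8.11, 7.71 and 7.88 on IVM arrays 1 to 5, against 8.04, 7.89, 8.00, 7.98 and 7.97 on immature arrays 1 to 5. The IVM pools were lower except replicate 3, which was the highest of all 10. Its difference was −0.13 (SE 0.074, limma adjusted p = 0.263, and 0.0114 without IVM replicate 3). The probe sets Bt.18199.1.A1_at and Bt.18570.1.S1_at were flat at 6.22 and 7.31.

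**Figure D2:**
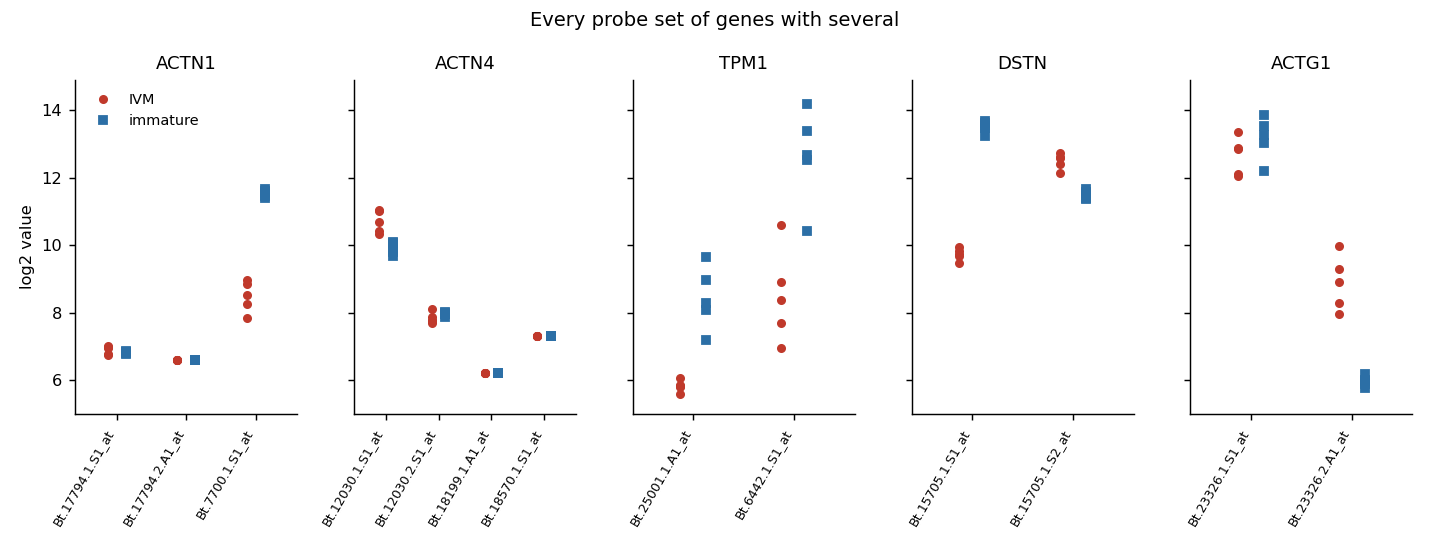
Log2 values on each array of every probe set of *ACTN1*, *ACTN4*, *TPM1*, *DSTN* and *ACTG1*, flat ones included, IVM left of immature in each pair. The *ACTN1* probe set Bt.7700.1.S1_at differs by −3.05 in IVM and Bt.17794.1.S1_at, at values that cannot be told from those of a dim probe set, differs by 0.071.

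Both probe sets of *TPM1*, the alpha-tropomyosin gene, were lower in IVM oocytes at the looser threshold. Bt.25001.1.A1_at had 5.85, 5.59, 5.83, 6.07 and 5.80 on IVM arrays 1 to 5, against 8.09, 7.21, 8.97, 9.65 and 8.29 on immature arrays 1 to 5. The groups did not overlap (gap 1.14), and the IVM pools were more tightly grouped (SD 0.17) than the immature pools (SD 0.92). These IVM values cannot be told from those of a dim probe set, which limits what their small spread can mean. The difference was −2.61 (SE 0.42, limma adjusted p = 0.00178). Bt.6442.1.S1_at had 7.69, 8.92, 8.38, 10.59 and 6.98 on IVM arrays 1 to 5, against 12.52, 10.43, 13.39, 14.18 and 12.69 on immature arrays 1 to 5. IVM replicate 4 stood just above immature replicate 2, and every IVM pool was below the immature pool of the same number. The difference of this probe set was −4.13 (SE 0.87, limma adjusted p = 0.00741), the largest in size among the members, or a 17.5-fold lower signal. On the immature arrays both probe sets put the replicates in the same order, 4, 3, 5, 1 and 2 from high to low.

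*TMSB10*, which encodes a small actin monomer-binding protein, had 11.04, 12.58, 13.08, 13.25 and 11.06 on IVM arrays 1 to 5, against 12.18, 11.58, 12.08, 11.99 and 11.87 on immature arrays 1 to 5. IVM replicates 1 and 5 lay below all immature pools and IVM replicates 2, 3 and 4 above them. The spread of the IVM pools was SD 1.08, against SD 0.23 in the immature pools. The difference of *TMSB10* was 0.26 (SE 0.49, limma adjusted p = 0.770) and became −0.67 with poly-A centring and −0.64 with hybridization centring.

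Groups that did not overlap were seen for 5 of the 11 varying member probe sets, 2 higher and 3 lower in IVM, against 56.3% of the 9460 varying probe sets, of which 27.0% were higher and 29.3% lower. The median difference of the 11 was −0.13, against 0.18 over the varying probe sets. The plot of the differences puts the member probe sets beside those of the other lists.

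**Figure D3:**
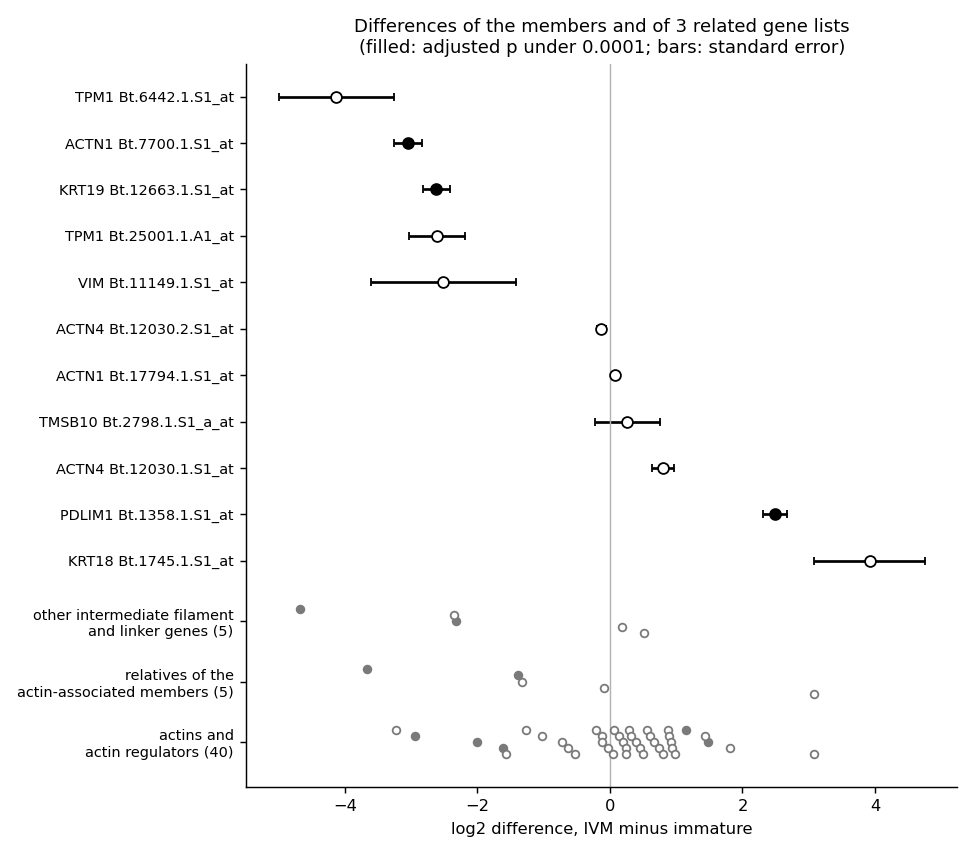
IVM minus immature log2 difference of each varying member probe set and of genes of the related lists, with bars for the standard error of the members and filled points for adjusted p under 0.0001 in limma. *PDLIM1* is the filled member point to the right of 0, and *KRT19* and *ACTN1* (Bt.7700.1.S1_at) are those to the left.

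Genes of 3 related lists were counted with the same test, each gene by its probe set with the highest mean. Of the 33 other intermediate filament and linker genes listed, 17 had a probe set and 5 of these varied. Of the 17, 0 rose and 2 fell, and at the looser threshold 1 was higher and 3 lower (median over the 5 varying genes −2.32). *NEFL*, the neurofilament light chain, averaged 7.23 ± 0.74 in IVM and 11.90 ± 0.52 in immature oocytes (SD, n = 5 each), a difference of −4.67 (SE 0.40, adjusted p = 5.26e-05), and its second probe set fell by 3.01 (adjusted p = 6.63e-05). *LMNA*, the nuclear lamin A/C gene, averaged 6.92 ± 0.26 in IVM and 9.24 ± 0.27 in immature oocytes, a difference of −2.32 (SE 0.17, adjusted p = 1.88e-05), while its other probe set was flat. The IVM values of *LMNA* and of both *NEFL* probe sets cannot be told from those of a dim probe set. *KRT5*, a basal epithelial keratin, differed by −2.35 without passing 0.0001 (adjusted p = 4.34e-04), while its other probe set was flat at 7.04. The IVM mean of the probe set that varied, 7.14, cannot be told from the value of a dim one. *KRT5* was taken up after its values were seen.

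Of 13 close relatives of the actin-associated members, 10 had a probe set and 5 varied. Of the 10, 0 rose and 2 fell, and at the looser threshold 1 was higher and 2 lower (median over the 5 varying genes −1.32). *PDLIM2*, which like PDLIM1 carries a PDZ and a LIM domain, had 6.34, 6.27, 6.14, 6.01 and 6.35 on IVM arrays 1 to 5, against 9.95, 9.84, 9.96, 9.79 and 9.88 on immature arrays 1 to 5. It fell by 3.66 (SE 0.072, adjusted p = 3.98e-08), whereas *PDLIM1* rose by 2.49. The difference between these differences was not tested, and the IVM values of *PDLIM2* cannot be told from those of a dim probe set.

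The 4 tropomyosin genes also differed. *TPM3* had 12.10, 11.76, 11.85, 11.71 and 11.98 on IVM arrays 1 to 5, against 13.21, 13.26, 13.31, 13.27 and 13.28 on immature arrays 1 to 5. Its difference was −1.38 (SE 0.074, adjusted p = 3.37e-06), and its other probe set differed by −0.16 (adjusted p = 0.159). *TPM4*, named after its values were seen, had 10.18, 11.66, 10.97, 13.08 and 9.50 on IVM arrays 1 to 5, against 7.72, 6.55, 8.22, 9.76 and 7.71 on immature arrays 1 to 5. It was 3.08 higher (SE 0.80, adjusted p = 0.0196), past 0.05 but not 0.0001, with IVM replicate 5 below immature replicate 4. *TPM2*, also named after its values were seen, differed by −1.32 (adjusted p = 0.114). At the looser threshold *TPM1* and *TPM3* were thus lower and *TPM4* higher.

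The third list held 76 actins and actin regulators, of which 58 had a probe set and 40 varied. Of the 58, 2 rose and 3 fell, and at the looser threshold 17 were higher and 9 lower (median over the 40 varying genes 0.27, against 0.18 over all varying probe sets). *VCL*, which links actin to adhesion sites and binds alpha-actinin, averaged 10.19 ± 0.19 in IVM and 8.71 ± 0.17 in immature oocytes (SD, n = 5 each), a difference of 1.48 (SE 0.11, adjusted p = 2.49e-05). A further *VCL* probe set was flat. The other gene that rose was *WASF1*, an activator of the Arp2/3 complex, by 1.15 (SE 0.11, adjusted p = 8.12e-05). *TMOD1*, which caps the slow-growing filament end together with tropomyosin, averaged 9.05 ± 0.40 in IVM and 12.00 ± 0.090 in immature oocytes and fell by 2.95 (SE 0.18, adjusted p = 7.65e-06). *ARPC1B*, an Arp2/3 subunit, fell by 2.01 (SE 0.18, adjusted p = 5.63e-05) and *CFL2*, a cofilin that severs filaments, by 1.62 (SE 0.089, adjusted p = 3.79e-06). Of the calls in these 3 lists, those of *PDLIM2*, *TPM3*, *TMOD1* and *CFL2* held without any single array. Those of *NEFL*, *LMNA*, *VCL*, *WASF1* and *ARPC1B* held in 1 to 3 of the 10 fits that left out an array, with an adjusted p of at most 4.85e-04 in the others.

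*ACTB*, which encodes cytoplasmic beta-actin, averaged 11.45 ± 0.62 in IVM and 10.89 ± 0.51 in immature oocytes (SD, n = 5 each). The difference was 0.56 (SE 0.36, adjusted p = 0.309), and it changed sign when centred on poly-A (−0.38) or hybridization controls (−0.35). As with *ACTN1*, 2 genes of this list, chosen after their values were seen, had probe sets that went apart. The *ACTG1* probe set Bt.23326.1.S1_at differed by −0.53 (adjusted p = 0.362) and Bt.23326.2.A1_at by 2.91 (adjusted p = 4.44e-04). In immature oocytes Bt.23326.2.A1_at averaged 5.98, which cannot be told from the value of a dim probe set. The *DSTN* probe set Bt.15705.1.S1_at differed by −3.77 (adjusted p = 1.24e-07) and Bt.15705.1.S2_at by 0.98 (adjusted p = 3.69e-04), where *DSTN* encodes destrin, an actin-depolymerising protein. Of the 762 genes with at least 2 varying probe sets, 87 (11.4%) had probe sets called in opposite directions at 0.05.

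Probe sets near both ends of a transcript were compared for the actin control of the array, which the platform annotates as *ACTA1*. Its 3' probe set averaged 5.80 ± 0.18 on IVM and 11.95 ± 1.53 on immature arrays (SD, n = 5 each), and its 5' probe set averaged 7.13 ± 0.019 on IVM and 7.14 ± 0.0048 on immature arrays. The 3' minus 5' value differed by −6.15 (exact permutation test, two-sided, p = 0.00794). The 5' probe set stayed between 7.10 and 7.14 on all arrays, so this difference is that of the 3' probe set, also −6.15. It cannot show how far the amplified RNA reached towards the 5' end. Its 3' probe set put the immature replicates in the order 4, 3, 5, 1 and 2, as both *TPM1* probe sets did. *ACTB* and the *ACTG1* probe set with the higher mean had this order too, so it was not particular to *TPM1*. The 3' minus 5' value for *GAPDH* differed by 0.064 (exact permutation test, p = 0.802). Whether the distance of a probe set from the 3' end had a part in the differences between probe sets of one member was not tested.

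The order of the pools for *VIM* and *TPM1* was set beside that of the genes of cumulus and granulosa cells. Of 25 such markers 23 had a probe set, and 16 varied. Their mean was 8.65 to 10.45 on the IVM arrays and 7.37 to 9.02 on the immature arrays. Those with no varying probe set were *FOXL2*, *ESR2*, *NR5A2*, *CD44*, *AREG* and *LHCGR*, the last of which was also listed as a theca marker. By this mean IVM replicate 4 was the highest and IVM replicate 5 the lowest of their group, and immature replicate 4 was the highest and immature replicate 2 the lowest of theirs, as for *VIM*. On the IVM arrays *VIM*, *TPM1* (Bt.6442.1.S1_at), *TPM4*, *INHA*, *INHBA*, *FST* and *VCAN* shared 1 order, 4, 2, 3, 1 and 5 from high to low. *LUM* and *PDGFRA*, counted here as stroma markers, and the actin gene *ACTG1* (Bt.23326.1.S1_at) had it too, so genes outside the cumulus and granulosa list shared it. Which cells these transcripts came from was not tested. On the immature arrays *VIM*, *TPM4* and *VCAN* shared the order 4, 3, 1, 5 and 2, whereas *INHA*, *INHBA* and *FST* had 3, 4, 1, 5 and 2. The markers did not all do so. Of the 16 varying markers, 7 had the whole IVM order of *VIM* and 4 its whole immature order. IVM replicate 4 was the highest IVM pool for 10 markers and the lowest for 3, among them *STAR* and *CYP19A1*. Immature replicate 2 was the lowest immature pool for 10 markers and the highest for 5, among them *STAR*. Immature replicate 4 was the highest immature pool for 5 markers and the lowest for 2.

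*INHA*, the inhibin alpha subunit made by granulosa cells, had 9.30, 10.69, 10.44, 11.91 and 8.76 on IVM arrays 1 to 5, against 11.56, 7.99, 12.59, 12.53 and 10.98 on immature arrays 1 to 5. Immature replicate 2, the lowest immature pool for *VIM* and for *TPM1*, was thus also the lowest for *INHA*. *VCAN*, the matrix proteoglycan of the expanding cumulus, had 12.49, 13.41, 12.67, 14.35 and 10.56 on IVM arrays 1 to 5, against 8.14, 7.34, 8.93, 11.26 and 8.02 on immature arrays 1 to 5. Immature replicate 4, the pool that stood apart for *KRT18*, was the highest immature pool for *VCAN*, whereas *INHA* was highest in immature replicate 3. *INHA*, *FST* and *CYP19A1* were chosen after their values were seen. Within the rule, *TNFAIP6*, a protein of the expanded cumulus matrix, rose by 10.86 (SE 0.998, adjusted p = 7.63e-05), *KITLG* fell by 0.66 (adjusted p = 4.54e-05), *STAR* differed by −1.19 (adjusted p = 0.00306) and *INHBA* by −0.53 (adjusted p = 0.848, and 0.12 without immature replicate 3). The probe sets of *TNFAIP6* lay 8.14 apart in their log2 differences, and 0.39% of the 762 genes had a gap at least as large. The *TNFAIP6* probe set given averaged 3.94 ± 1.15 in immature oocytes, where its value cannot be told from that of a dim probe set. *KITLG* averaged 6.68 in IVM and 7.34 in immature oocytes, and these values too cannot be told from those of a dim probe set. The part of somatic RNA in the values of *VIM*, *TPM1*, *KRT18* and *TMSB10* was not tested.

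**Figure D4:**
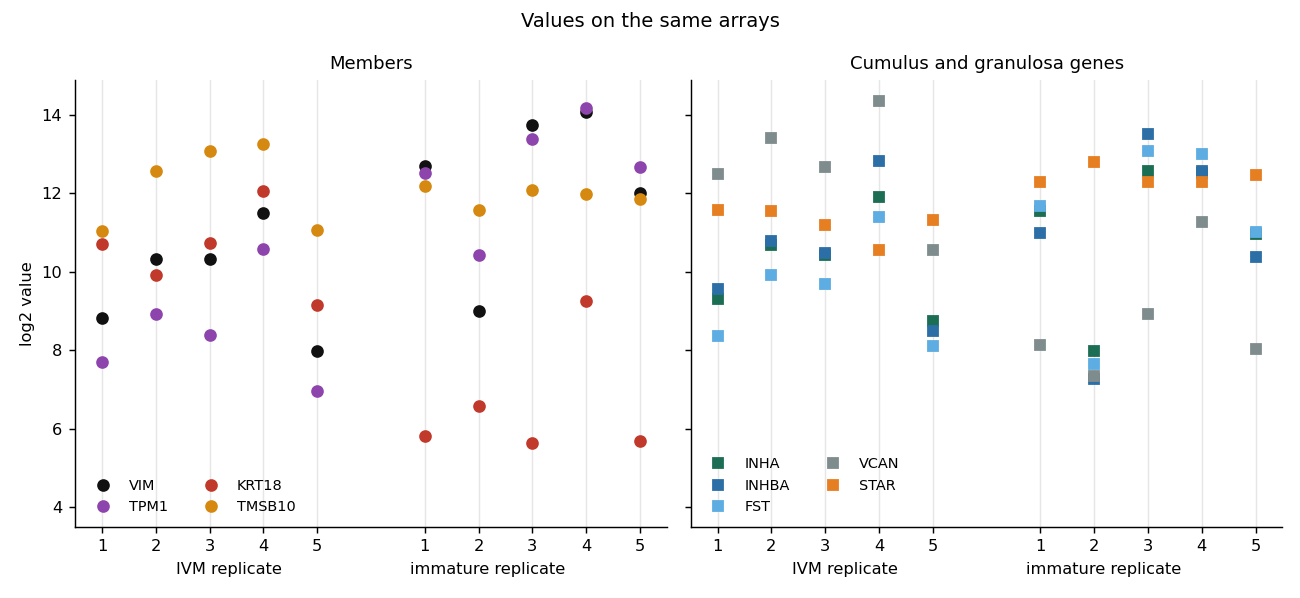
Log2 values on each array of *VIM*, *TPM1* (Bt.6442.1.S1_at), *KRT18* and *TMSB10* (left panel) and of *INHA*, *INHBA*, *FST*, *VCAN* and *STAR* (right panel), IVM replicates left of immature replicates. *VIM* and *INHA* are both lowest in immature replicate 2 among the immature pools, at 9.01 and 7.99, where *STAR* is highest at 12.80.

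Markers of other cells were looked at in the same way. Of the 14 theca, stroma and smooth muscle markers all had a probe set and 5 varied, with a mean of 7.68 to 10.12 on the IVM arrays and 5.59 to 6.69 on the immature arrays, and 0 passed 0.0001. At the looser threshold 4 were higher, including *PDGFRA* (difference 5.81) and *LUM* (difference 4.37), while *COL1A1*, *COL1A2* and *ACTA2* were flat. The immature means of *PDGFRA* (5.06) and *LUM* (5.53) cannot be told from values of dim probe sets, which limits what the size of these differences can mean. Of the 10 epithelial markers 3 varied, with a mean of 7.69 to 8.85 on the IVM arrays and 9.11 to 9.80 on the immature arrays. At the looser threshold 1 was higher and 2 were lower. *ELF3*, an epithelial transcription factor, fell by 2.46 (adjusted p = 7.57e-05), *KRT5* was lower at the looser threshold as given above, and *CDH1*, which encodes E-cadherin and was named after its values were seen, was higher by 1.32 (adjusted p = 0.0203), while *EPCAM*, *KRT7* and *KRT14* were flat. All 11 endothelial, blood and immune markers with a probe set were flat. The 10 oocyte markers had a mean of 9.87 to 11.06 on the IVM arrays, lowest in replicate 4, and 12.29 to 12.78 on the immature arrays. Of them 3 fell at 0.0001, *GTSF1* by 4.87, *NLRP5* by 4.03 and *ZP3* by 3.78.

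For each varying member probe set, the most alike profile was sought among 6140 varying probe sets of other genes, as the root mean square difference over the 10 arrays after each profile was centred on its own mean. For *VIM* it was *FST*, which encodes the activin-binding protein follistatin, at 0.436. For *TPM1* it was *ANGPT2* at 0.276 (Bt.25001.1.A1_at) and *FOS* at 0.442 (Bt.6442.1.S1_at). For *KRT18* it was *TCIM* at 0.687, the largest of these distances. *KRT19* was nearest to *CHCHD3* (0.139), *ACTN1* (Bt.7700.1.S1_at) to *GPRC5C* (0.120) and *ACTN4* (Bt.12030.1.S1_at) to *ATL2* (0.0890). *PDLIM1* was nearest to *CREB3L2* (0.216) and *TMSB10* to *MPV17* (0.320). The probe sets that hardly differed, *ACTN1* (Bt.17794.1.S1_at) and *ACTN4* (Bt.12030.2.S1_at), were nearest to *EEFSEC* (0.0551) and *GALT* (0.0466).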

How the data were processed

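The authors quantified the Affymetrix arrays with GCOS and applied quantile normalisation and FARMS, which gives each probe set 1 log2 value on an array. All 10 deposited columns of log2 values were used, so 0 were left out. No genome build is given in the sources used here.

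Of the probe sets, 112 controls were set apart and 24016 were tested with lmFit and eBayes of limma 3.58.1 (R 4.3.3) over all 10 arrays, IVM minus immature, with Benjamini-Hochberg adjustment and the false discovery rate of the study's methods, 0.0001. SAM was not run. With 14556 flat probe sets the prior of the fit had 0.103 degrees of freedom. Symbols were updated through RefSeq gene identifiers for 13263 probe sets and accessions for 2, and kept from the platform for 27. Probe sets with several symbols (86) or none (10638) were tested but not named. Replicate numbers were taken to pair the groups, since the methods give a replicate as a day of collection. Deviations of same-numbered arrays from their group means correlated at 0.15, −0.34, 0.08, 0.68 and 0.35 for numbers 1 to 5. The highest correlation of each IVM array with an immature array of another number was 0.56, 0.49, 0.24, 0.36 and 0.63. The same number was thus the closest for number 4 only, and the values do not bear out the pairing for the others. A replicate block was therefore run as an alternative, among 21 in all, including another centring and each array left out.

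The members and lists were chosen with earlier results of these data known. Genes named were all members, up to 3 of each other list with the largest rise and 3 with the largest fall past the threshold, otherwise up to 2 varying ones with the largest difference, *ACTB* and *TPM3*, and the 3 oocyte and 3 cumulus and granulosa markers with the highest mean. Fits were tested on simulated data. The number of arrays limits the precision.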

Additional observations from a re-analysis of the deposited data

Results flagged for a closer look

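The immature pools of *KRT18* held 1 pool far from the others. Immature replicate 4 was at 9.27 and the next immature pool at 6.57, a gap of 0.741 of the whole range of the 5 pools against a critical value of 0.710 in Dixon's test. Of 22 groups of member values tested this way, 1 was so far apart, and chance gives about 1 in 20. The same pool had the highest immature mean of the cumulus and granulosa markers, at 9.02. By single genes it was the highest immature pool for 5 of the 16 varying markers and the lowest for 2. Without it the *KRT18* difference was 4.59 with an adjusted p of 0.00104 in limma.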

How the results depend on the processing

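At 0.05 in place of 0.0001, 3732 probe sets were higher and 3602 lower in IVM, and 3 and 4 of the members. Over varying probe sets only, 685 were higher and 1688 lower. With the replicate block in limma, 0 were higher and 0 lower, members included, with 8805 at an unadjusted p under 0.05. With the block over varying probe sets only, 172 were higher and 930 lower, an alternative added after seeing the data. Centring on poly-A controls moved the median of all probe sets by −0.94 and called 165 higher and 18661 lower, with 1 member higher (*PDLIM1*, adjusted p = 1.39e-06) and 6 lower. The 18661 exceed the 9460 varying probe sets, so they include flat ones, which were moved by the centring alone. The member counts cover only the 11 varying member probe sets, so the 2 counts do not have the same base. Centring on hybridization controls moved it by −0.90 and called 203 higher and 2437 lower, with 1 member higher and 5 lower, where *KRT18* was the higher one and *PDLIM1* was no longer called (adjusted p = 1.72e-04). In that fit the prior degrees of freedom were infinite, so every member had the same SE, 0.37. The spread of a single probe set had no part in its call, and *KRT18* (3.02) and *PDLIM1* (1.59) were told apart by the size of their differences alone. Centring on the array median called 382 higher and 1340 lower, and quantile normalisation again 396 and 1270. Immature replicates 4 and 5 against the IVM arrays gave 0 higher and 4 lower, with 0 members in either direction and 6373 probe sets at an unadjusted p under 0.05. Without both arrays numbered 4, added after seeing the data, 105 were higher and 683 lower, with 1 member higher (*PDLIM1*) and 1 lower (*ACTN1*, Bt.7700.1.S1_at). Leaving out 1 array gave 77 to 318 higher and 703 to 1097 lower, with 0 to 1 members higher and 0 to 2 lower, and without immature replicate 5 the members had 0 and 0.

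The following changed sign, with poly-A centring first and hybridization centring second: *ACTN1* (Bt.17794.1.S1_at) −0.86 and −0.83, *ACTN4* (Bt.12030.1.S1_at) −0.14 and −0.11, *TMSB10* −0.67 and −0.64, *KPNA7* −0.56 and −0.53, *ACTB* −0.38 and −0.35. Leaving out 1 array put *INHBA* between −1.45 and 0.12, the highest without immature replicate 3. The 3' minus 5' difference was 0.064 for *GAPDH* in place of the actin control. The cause was not tested. The other member differences kept their direction under the alternatives run. A dim probe set cannot be told from a flat one in summarised values, and 5 arrays a group limit what small differences can be seen.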
